A study of Mus musculus with 140 samples.

Results

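The genes described here are the 6 core transcription factors of the epithelial-mesenchymal transition (EMT), the zinc-finger and homeobox factors Zeb1 and Zeb2, the zinc-finger factors Snai1 and Snai2, and the basic helix-loop-helix factors Twist1 and Twist2. Their members are the silencer intervals that touch, by 1 bp or more, the gene body or the 10 kb on either side of it in mm10, with gene models from GENCODE M21. The rule found 41 intervals among the 204761 of both lists, 18 of 89596 in mouse embryonic fibroblasts (MEFs) and 23 of 115165 in mouse embryonic stem cells (mESCs). These were 0.0201% and 0.02% of the lists. The rule itself uses no measured value.

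The study screened the mouse genome for silencers by Ss-STARR-seq, a reporter assay; a silencer is a stretch of DNA that reduces the transcription of a gene. Sonicated genomic fragments, 300 to 400 bp long per the labels, were cloned into a reporter plasmid, and the reporter RNA of transfected cells was sequenced beside the input plasmid pool. The labels list 140 libraries, 20 of input, 64 of MEF output and 56 of mESC output, and each cell type has 1 deposited list of intervals with a fold value. MEFs are primary fibroblasts grown in serum, the usual starting cells of reprogramming, and the stem cells were kept in medium with N2B27, 2 inhibitors and LIF, which holds them in a pluripotent state. The protocol also names iCD1, an induction medium, without saying whether the screened MEFs were in it. No genotype, treatment or time is given for either cell type. The fold is the authors' value, taken here as a linear ratio from its column name and its range (all above 2, up to 117), with no statement of how it was scaled, and the lists do not say whether it is input over output or the converse. Each fold is compared below only within its own list. With 1 list a cell type and no value for any library, no difference between the cell types has a replicate check, and every p-value describes the lists alone. A plasmid fragment is also read outside its chromosome, so an interval gives a sequence's effect on the reporter and not the state of the gene. The lists hold no expression values, so neither the cell types nor the levels of these 6 factors could be checked against marker genes.

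EMT factors are repressors that switch epithelial genes off, E-cadherin first among them, and let cells lose their junctions and move. ZEB and SNAI proteins bind short E-box sequences directly and recruit corepressors, and TWIST proteins bind E-boxes as dimers with E proteins. Fibroblasts are mesenchymal cells, and a mesenchymal-to-epithelial change is an early step when they are reprogrammed to pluripotency, during which these factors are turned down.

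The stretches printed here, from the RefSeq GRCm38.p6 sequence (mm10, forward strand), show what intervals at 4 of the genes consist of, none of which lay on an exon or in a promoter. They are in lower case with E-boxes (CANNTG) in capitals. Those of Twist2 and of Zeb2 intron 5 are in both lists, and the others have the highest fold of their gene in the list named. The Twist2 stretch is the central 300 of 330 bp, chr1:91794787-91795086, and holds 4 E-boxes.
Twist2, both lists: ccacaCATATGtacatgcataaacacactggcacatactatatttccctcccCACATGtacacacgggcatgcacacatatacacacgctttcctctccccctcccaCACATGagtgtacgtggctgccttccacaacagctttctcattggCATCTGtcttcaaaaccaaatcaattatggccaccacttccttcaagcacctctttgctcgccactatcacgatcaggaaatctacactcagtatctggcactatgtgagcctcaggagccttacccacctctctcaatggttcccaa
The Twist1 intervals neighbour each other, with the MEF interval at chr12:33953282-33953379 and the mESC interval at chr12:33953602-33953651. Neither holds an E-box.
Twist1, MEF: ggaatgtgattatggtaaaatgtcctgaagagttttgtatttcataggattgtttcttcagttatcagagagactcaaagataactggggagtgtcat
Twist1, mESC: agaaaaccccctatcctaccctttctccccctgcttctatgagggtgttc
At Zeb2, the MEF interval is at chr2:45087002-45087101, the mESC interval at chr2:45038350-45038399, and the stretch in both lists at chr2:45005772-45006052. None of these 3 holds an E-box.
Zeb2, MEF: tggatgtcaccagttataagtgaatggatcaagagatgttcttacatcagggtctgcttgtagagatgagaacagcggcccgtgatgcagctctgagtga
Zeb2, mESC: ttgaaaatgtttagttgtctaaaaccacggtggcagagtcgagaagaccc
Zeb2, both lists: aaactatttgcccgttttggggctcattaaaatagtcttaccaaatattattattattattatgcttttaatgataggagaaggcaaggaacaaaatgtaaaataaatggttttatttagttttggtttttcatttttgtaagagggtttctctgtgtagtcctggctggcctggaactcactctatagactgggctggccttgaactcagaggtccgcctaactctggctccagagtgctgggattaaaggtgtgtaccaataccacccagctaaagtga
For Snai2, the central 300 of 350 bp of its interval, found in mESC, are at chr16:14717677-14717976 and hold 1 E-box.
Snai2, mESC: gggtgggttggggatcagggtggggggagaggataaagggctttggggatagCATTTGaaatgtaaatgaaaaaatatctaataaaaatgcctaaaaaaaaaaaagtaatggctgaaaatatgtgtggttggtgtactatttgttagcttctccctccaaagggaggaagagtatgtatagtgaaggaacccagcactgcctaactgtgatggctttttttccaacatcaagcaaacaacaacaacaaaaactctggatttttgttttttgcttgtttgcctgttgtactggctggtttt

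The intervals were spread over the genes and their introns much as the length of the territories is. Zeb1 and Zeb2, the longest genes, carried 31 of the 41 intervals (75.6%) on 72.3% of the territory length, and the 4 shorter genes carried 10. Of all 41 intervals, 29 (70.7%) lay in introns, which make up 71.4% of the territories, 6 upstream and 6 downstream of the gene body. Exons make up 4.35% of the territories and the kb on either side of the start sites 2.43%. These shares, and that of introns, are for the longest coding transcript of each gene. The search for exons and start sites took in all basic GENCODE transcripts, whose shares were not counted. None of the 41 intervals overlapped an exon of its gene in these models, and none had its centre within 1 kb of a start site of that gene. No interval overlapped a functional element of the RefSeq annotation, but the share of the whole lists that does was not counted. As 10 MEF intervals overlapped 10 mESC intervals, the 41 intervals made up 31 distinct places, so the lists are not independent samples of these genes. The 6 territories, each the gene body with its flanks, added up to 0.494 Mb.

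Over all 6 territories the density was 36.4 MEF intervals per Mb (95% exact Poisson interval 21.6 to 57.6, 18 intervals) and 46.5 mESC intervals per Mb (29.5 to 69.8, 23 intervals). The medians of the 21938 protein-coding genes, 31.3 and 40.6 per Mb, lay inside these intervals. They are medians of single genes, whereas the pooled densities weight each gene by its length. The median over the 6 genes was 23.8 per Mb in MEF, below that of all genes, and 43.3 per Mb in mESC, above it.

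**Figure D1:**
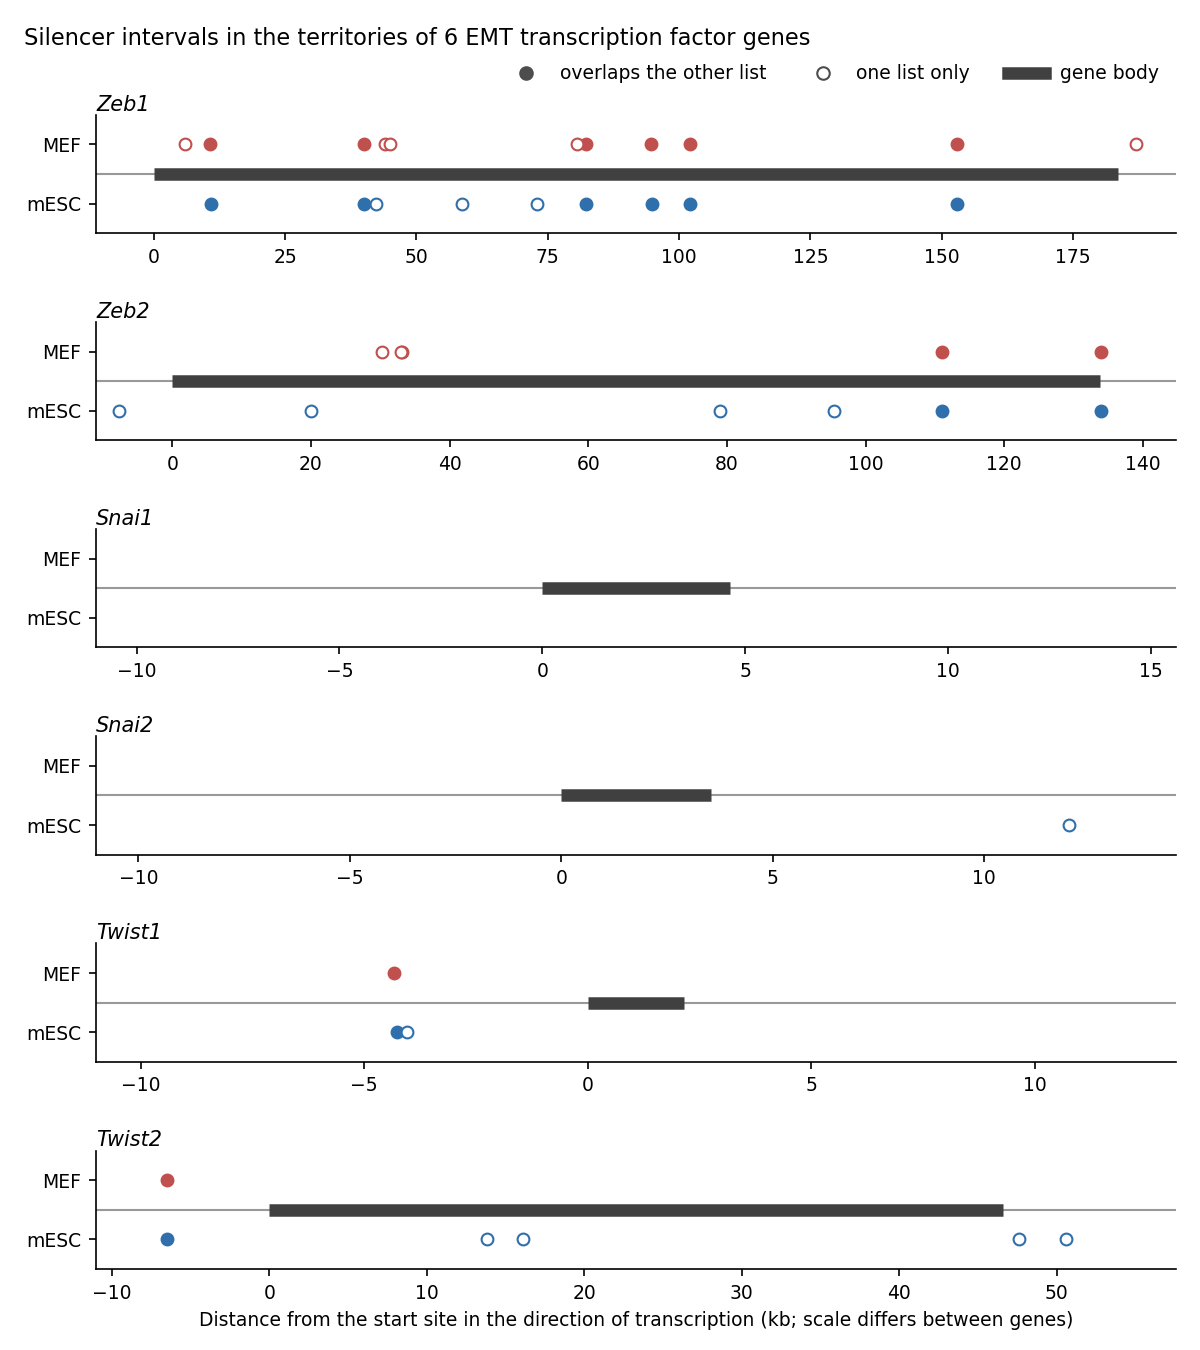
Positions of all 41 intervals along the 6 territories, as distance in kb from the start site in the direction of transcription, with MEF intervals above and mESC intervals below the gene body (dark bar). Filled points overlap the other list and open points are in one list only. At Zeb1 most points of both lists fall in the first 102 kb of the gene, and Snai1 has none.

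Zeb1 held the most intervals. It lies on chromosome 18 at 5591860 to 5775467 on the forward strand (mm10), spans 184 kb, and encodes a repressor with zinc-finger clusters at both ends. Its territory of 204 kb held 11 MEF and 9 mESC intervals. The MEF density of 54 per Mb (27 to 96.7) was 1.73 times the median of protein-coding genes and above that of 75.7% of them. The mESC density of 44.2 per Mb (20.2 to 83.9) was 1.09 times the median and above 54.7%. Among the 2561 genes with territories of 100 to 300 kb, Zeb1 stood above 76.5% in MEF and 45.1% in mESC. Both Poisson intervals were wide enough to hold the medians of those long genes, 35.9 and 47.2 per Mb.

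Zeb1 was the only one of the 6 genes with more MEF than mESC intervals, a pattern shared by 19.9% of all protein-coding genes. The mESC share of its intervals was 45% (95% exact binomial interval 23.1 to 68.5), against 56.2% over both whole lists. The two-sided exact binomial test gave p = 0.37, with an adjusted p of 1 over all genes tested. The share of the whole lists thus lay inside the binomial interval of Zeb1. Test and interval treat the intervals as independent, although 6 of the MEF intervals at Zeb1 overlapped mESC intervals, so both are approximate.

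Intron 1 of Zeb1, 113 kb long, held 9 of the 11 MEF intervals and 8 of the 9 mESC intervals. Intron 2, 43.5 kb long, held 1 of each, at the same place, and introns 3 to 7 held none. Between the last interval of intron 1 and the one in intron 2, a stretch of 50.7 kb, 24.9% of the territory, was free of intervals in both lists. Within intron 1 some intervals lay close together, though how often this occurs in introns of other genes was not counted. From 40 kb to 45 kb past the start site, 3 MEF and 2 mESC intervals lay within 5.5 kb. Groups of 2 MEF and 1 mESC intervals lay within 5.14 kb near 5.99 kb and within 1.95 kb near 80.6 kb. In each of these groups 1 MEF and 1 mESC interval overlapped, so the distinct places were fewer.

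The Zeb1 places found in both lists carried folds between 2.04 and 3.03. At 10.7 kb the MEF fold was 2.77, and the overlapping mESC interval had 2.59. At 40 kb the folds were 2.87 in MEF and 2.71 in mESC, and 328 bp were common to both intervals. At 82.3 kb they were 2.21 and 2.13, over a common stretch of 100 bp. All 3 of these places thus had folds between 2 and 3 in each list, the 82.3 kb MEF interval being fully repeat-masked (100% of its bases). At 94.7 kb the MEF fold was 2.63, with 2.07 for its mESC partner. At 102 kb the MEF fold was 2.43 and the mESC fold 3.03, the highest of Zeb1 in mESC. In intron 2, at 153 kb, the folds were 2.04 and 2.12, and 314 bp were common. Each of the 6 places differed in at least one end between the lists.

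The other 8 intervals of Zeb1 were in one list. In MEF they lay at 5.99 kb (fold 2.22), 44.1 kb (3.77), 45 kb (2.08), 80.6 kb (2.22) and 187 kb (9.26). In mESC they lay at 42.3 kb (2.03), 58.6 kb (2.14) and 73 kb (2.24). The interval at 5.99 kb was the nearest to the start site, and that at 45 kb, 538 bp, was the longest of all 41. The mESC-only folds were all below that list's median of 2.42.

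The interval at 187 kb, just downstream of the gene, had the highest fold of the 18 MEF intervals. It lies on chromosome 18 at 5778864 to 5779013, is 150 bp long, and its MEF fold of 9.26 ranked 325 of 89596, above 99.6% of the list. The next highest MEF fold of the 6 genes was 3.77. Of its bases 20% were G or C and 66.7% were repeat-masked, where the list medians were 40% and 29.7%. That fold value was carried by 19 intervals of the list. The nearest mESC interval lay 34 kb away.

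Zeb2, the partner repressor of Zeb1, lies on chromosome 2 at 44983632 to 45117395 on the reverse strand and spans 134 kb. Its territory of 154 kb held 5 MEF and 6 mESC intervals, which is 32.5 per Mb (10.6 to 75.9) and 39 per Mb (14.3 to 84.9). These were 1.04 and 0.962 times the medians of protein-coding genes. The mESC share was 54.5% (23.4 to 83.3), and the exact binomial test gave p = 1, adjusted p = 1. Intron 3, with 86.9 kb the longest, held 3 MEF and 2 mESC intervals. The 3 MEF intervals lay within 2.9 kb, between 30.3 and 33.2 kb past the start site, with no mESC interval among them, and their folds were 2.84, 2.14 and 2.42.

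The higher mESC folds at Zeb2 belonged to intervals found in that list alone, as 56.9% of all mESC intervals at or above the median fold were. The 50 bp interval in intron 3, at 79 kb, had a fold of 4.61, above 95% of the mESC list. The interval in intron 4, at 95.4 kb, had 4.17, above 93%. Those at 20 kb in intron 3 and 7.73 kb upstream had 2.96 and 3.31. All 4 lay above the list median of 2.42, while the places in both lists lay below the medians. In intron 5, at 111 kb, the folds were 2.23 in MEF and 2.07 in mESC. The other shared place, at 134 kb, had 2.12 and 2.23. It straddles the 3' end of Zeb2 as RefSeq draws it, with 7 bases of the MEF interval and 16 of the mESC interval inside the last RefSeq exon, but lies 113 and 104 bp beyond the end in GENCODE M21.

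Snai1, the SNAI factor that represses E-cadherin, had no interval in either list. The gene spans 4.62 kb on chromosome 2 at 167538195 to 167542814 on the forward strand, and its territory of 24.6 kb allows up to 150 per Mb at a count of 0 (95% exact Poisson bound). Of the 7774 protein-coding genes with territories of 20 to 30 kb, 32.7% had no interval in either list, so the empty territory is common at this length. In MEF the surroundings of the gene were empty over a longer stretch. The nearest MEF interval lay 82.5 kb upstream of the start site, farther than for 95.4% of protein-coding genes, where the median was 10.9 kb. Around the start site 171 kb, from 167455702 to 167626751, had no MEF interval, and 5 mESC intervals lay in that stretch. It touches 6 protein-coding genes, Slc9a8, Spata2, Rnf114, Snai1, Ube2v1 and Gm20431, and 51.3% of its bases are G or C. A stretch at least as long was found around 2156 protein-coding genes, and 90.2% had a shorter one. The part of base composition in this was not tested. The nearest mESC interval lay 19.8 kb upstream, farther than for 77.6% of genes, with a fold of 2.01.

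Snai2, the SNAI factor also known as Slug, spans 3.53 kb on chromosome 16 at 14705852 to 14709385 on the forward strand. It held 0 MEF intervals (up to 157 per Mb) and 1 mESC interval, 42.5 per Mb (1.08 to 237). No MEF interval was found for 51.5% of the genes with territories of 20 to 30 kb. The mESC interval, printed above, lay 12 kb past the start site and downstream of the gene, with a fold of 2.07 and 68.3% of its bases masked. Only 11% of the mESC list had a lower fold. The nearest MEF interval lay 29.7 kb downstream of the start site, outside the territory.

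Twist1, required for mesoderm and skull development, spans 2.16 kb on chromosome 12 at 33957671 to 33959829 on the forward strand. Its 3 intervals, 1 MEF and 2 mESC, lay together in 370 bp upstream of the gene. The MEF interval, 98 bp long, lay 4.34 kb upstream of the start site with a fold of 2.9. The mESC interval that overlaps it by 28 bp lay at 4.27 kb with a fold of 2.14. The other, 50 bp long and fully masked (100%), lay at 4.04 kb with 3.23. Twist1 was thus the gene whose nearest intervals were closest to a start site, 4.29 kb in MEF and 4.02 kb in mESC, but 23.8% and 28.3% of protein-coding genes had a nearer one. Its mESC density was 90.3 per Mb (10.9 to 326), 2.22 times the median, on 2 intervals.

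Twist2, the paralogue of Twist1, spans 46.6 kb on chromosome 1 at 91801461 to 91848028 on the forward strand. Its territory of 66.6 kb held 1 MEF and 5 mESC intervals, 15 per Mb (0.38 to 83.7) and 75.1 per Mb (24.4 to 175). The MEF interval lay 6.52 kb upstream with a fold of 2.17 and contained the whole of the 330 bp mESC interval there, whose fold was 2.26. The 4 intervals of mESC alone lay at 13.8 kb (fold 2.59) and 16.1 kb (2.02) in the intron and at 47.6 kb (2.05) and 50.6 kb (2.1) downstream. With 5 of 6 intervals, the mESC share was 83.3% (35.9 to 99.6), an interval that holds the 56.2% of the whole lists. With fewer than 10 intervals the gene was not among those tested.

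**Figure D2:**
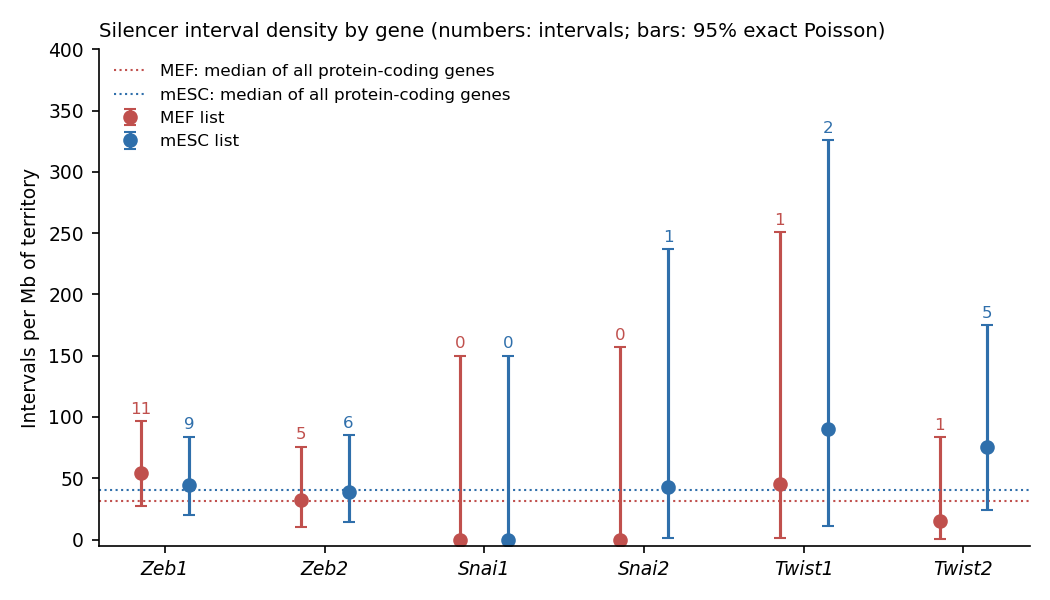
Intervals per Mb of territory for each gene in the MEF and mESC lists, with 95% exact Poisson intervals as bars and the number of intervals above each bar. Dotted lines mark the medians of all protein-coding genes, 31.3 and 40.6 per Mb, which every bar reaches.

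Counted against the background of 21938 protein-coding genes, the 6 genes lay on both sides of the median density. None reached 2 times the median in MEF, where 19.6% of all genes did. In mESC, 1 did (Twist1), beside 19.6% of all genes. At most 0.5 times the median was found for 3 of the 6 in MEF (Snai1, Snai2 and Twist2, the last at 0.48 times), against 35% of all genes, and for 1 in mESC (Snai1), against 29.1%. The median over the 6 genes was 23.8 per Mb in MEF and 43.3 per Mb in mESC.

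Of the 6 genes, Zeb1 and Zeb2 held the 10 intervals that the exact binomial test required, and 0 of 2 were called at an adjusted p under 0.05. Zeb2, with 11 intervals, could not have been called at any split after adjustment over the 3549 genes, so its result carries no information. Over all 3549 genes tested, 0% were called toward MEF and 0% toward mESC. The same exact binomial test gave an unadjusted p under 0.05 for 30 genes, none of them among the 6, and the lowest p was 0.00718, so the test separated no gene of this genome at these counts.

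About as many folds lay above the list median as below it in MEF, and more lay below it in mESC. MEF folds ran from 2.04 to 9.26 with a median of 2.32, and the whole list had a median of 2.36. In mESC they ran from 2.02 to 4.61 with a median of 2.23, against 2.42. In each list 9 intervals were at or above its median. Folds above 4 were found for 1 of 18 MEF intervals and 2 of 23 mESC intervals, where the whole lists had 5.92% and 7.99%. The fold is a coarse value in both whole lists, with 3077 distinct values on 89596 MEF intervals and 3594 on 115165 mESC intervals. Of the members, 12 of 18 MEF intervals and 17 of 23 mESC intervals had a fold carried by 100 or more intervals of their list. The share of the whole lists with such a fold was not counted. The mESC interval at 40 kb in Zeb1 had the list's most frequent value, 2.71, found 4086 times.

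**Figure D3:**
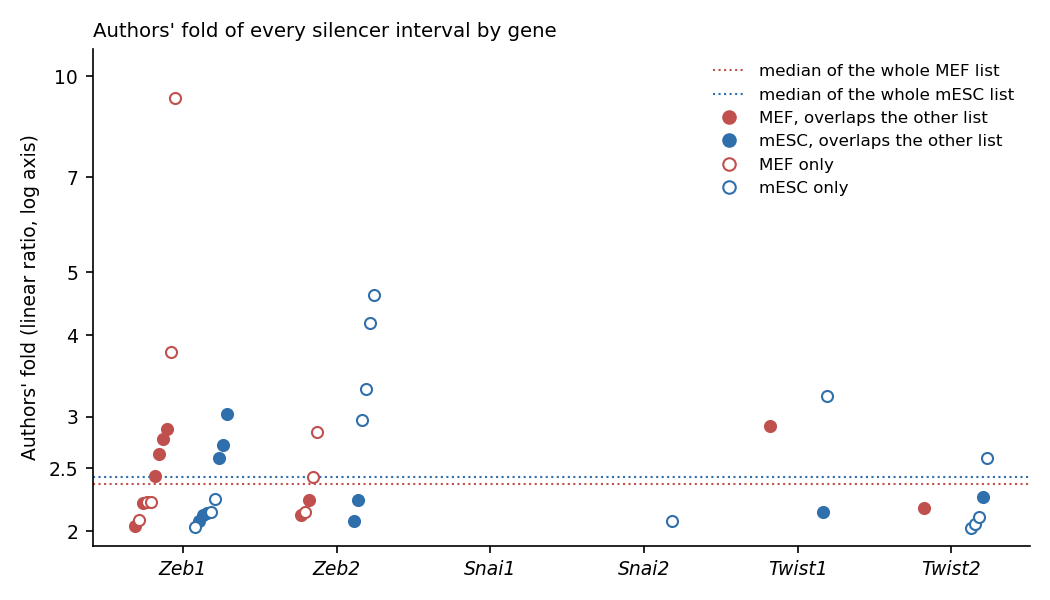
The authors' fold (linear ratio, log axis) of each of the 41 intervals by gene, MEF in red and mESC in blue, with filled points for intervals that overlap the other list and dotted lines at the list medians of 2.36 and 2.42. Folds can be compared only within a colour. One MEF interval downstream of Zeb1, at 9.26, stands apart from the other MEF values, and the mESC values at Zeb2 above 2.9 are all open points.

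The places found in both lists were 10 of 18 MEF intervals (55.6%, 95% exact binomial interval 30.8 to 78.5) and 10 of 23 mESC intervals (43.5%, 23.2 to 65.5). Over the whole lists 47.3% and 36.6% were shared, and both values lay inside these intervals. The members were longer at the median (292 bp in MEF, 297 bp in mESC) than their lists (200 bp each). The part of length in the shared fractions was not tested. Zeb1 had 6 of the 10 pairs and Zeb2 had 2, with 1 each at Twist1 and Twist2. The overlap ran from 28 bp at Twist1 to 330 bp at Twist2, and 0 of the pairs had the same ends. Of the 3 intervals with a fold above 4, 1 in MEF and 2 in mESC, none was in both lists, where 55.1% of such MEF intervals and 41.4% of such mESC intervals in the whole lists were.

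Nearest intervals placed the genes in another order than density. In MEF the distances from the start site were 4.29 kb at Twist1, 5.77 kb at Zeb1, 6.31 kb at Twist2, 28.6 kb at Zeb2, 29.7 kb at Snai2 and 82.5 kb at Snai1. In mESC they were 4.02 kb at Twist1, 6.36 kb at Twist2, 7.71 kb at Zeb2, 10.8 kb at Zeb1, 11.8 kb at Snai2 and 19.8 kb at Snai1. Medians over protein-coding genes were 10.9 and 8.31 kb. Twist1 came first and Snai2 and Snai1 last in both lists, while Zeb1, Twist2 and Zeb2 changed places.

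In sequence the intervals were close to their lists in base composition and less repeat-masked at the median. The median G and C content was 37.2% in MEF and 40.7% in mESC, with 40% in each list. The median masked share was 12.1% and 21.1%, against 29.7% and 33%. The territories themselves were 17.2% (Twist2) to 34.8% (Zeb1) masked, and the part of this in the lower shares was not tested. The 22 intervals shorter than 300 bp are below the stated fragment length, so the assayed fragments reached past them. The same holds for most intervals of the whole lists, whose median length was 200 bp in each.

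Motifs were counted on both strands in windows of 200 bp placed at the centre of each interval, and windows of overlapping intervals of the lists repeat part of the same sequence. Any E-box (CANNTG) was in 11 of 18 MEF windows (61.1%), against 67.2% of the whole list, and in 18 of 23 mESC windows (78.3%), also against 67.2%. Over whole intervals the shares were 61.1% in MEF (list 62.7%) and 65.2% in mESC (list 63.4%). Among windows at or above the median fold they were 55.6% in MEF (list 66.3%) and 66.7% in mESC (list 66.8%). The members' intervals were longer at the median (292 bp in MEF, 297 bp in mESC) than those of the lists (200 bp each). The part of length in the whole-interval shares, here and for the TEAD site below, was not tested. The E-box preferred by ZEB and SNAI proteins (CACCTG, a case of CANNTG) was in 0 of 18 MEF windows, where 10.3% of the list had it. It was in 1 of 23 mESC windows (4.35%, list 10.5%), at the Twist2 interval 50.6 kb past the start site. The whole MEF interval at 45 kb in Zeb1 held 1 such box outside its window. The share was below that of the list in both cell types, on small counts.

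The E-boxes preferred by TWIST dimers were counted as well, and each is also an E-box of the general form. The box CATATG was in 3 of 18 MEF windows (16.7%, list 8.12%) and 3 of 23 mESC windows (13%, list 8.39%), and CATCTG in 2 (11.1%, list 14.5%) and 4 (17.4%, list 14.2%). The MYC-type box CACGTG was in none of the windows (lists 1.91% and 1.63%). Of motifs outside the E-box family, the TEAD site CATTCC was in 4 MEF windows (22.2%, list 11%) and 4 mESC windows (17.4%, list 11.2%). Over whole intervals, an alternative chosen after seeing the data, the TEAD share was 22.2% in MEF (list 11.8%) and 13% in mESC (list 12.2%). Among windows at or above the median fold, chosen the same way, it was 11.1% in MEF (list 10.9%) and 22.2% in mESC (list 11.2%). The AP-1 site TGANTCA (lists 6.15% and 5.48%) and the octamer ATGCAAAT bound by Oct4 (lists 1.66% and 1.67%) were in none.

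**Figure D4:**
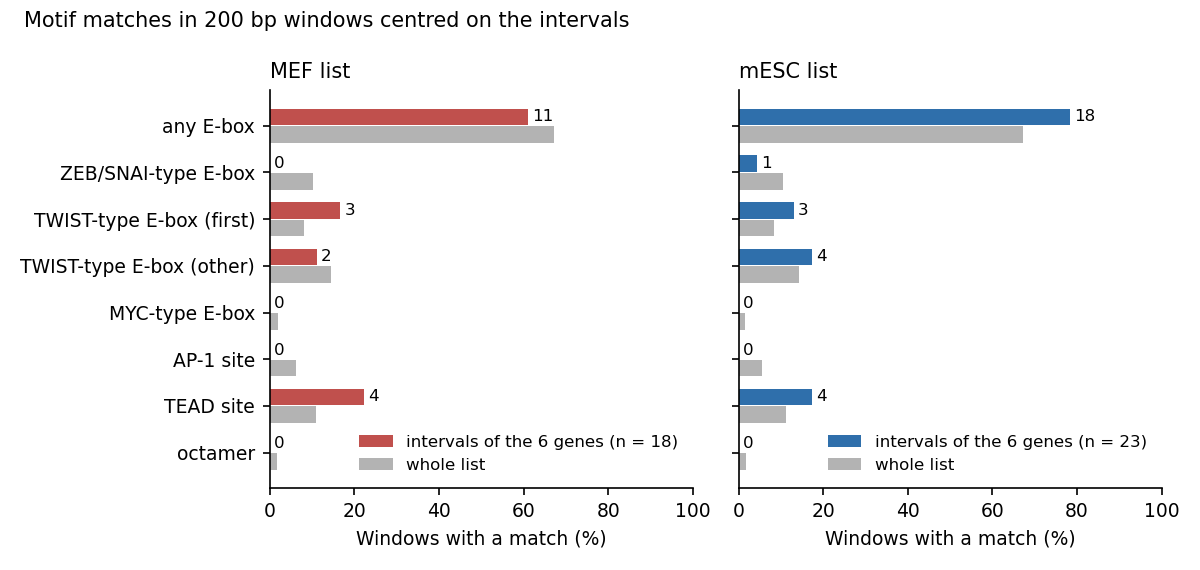
Share of 200 bp windows with a match on either strand, in percent, for the intervals of the 6 genes (coloured, with counts at the bars) and for the whole list (grey). The first TWIST-type E-box is CATATG and the other is CATCTG. The ZEB/SNAI-type box (CACCTG) has counts of 0 and 1, and the TEAD counts are 4 in each panel.

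The other genes of the transition were counted in 5 lists, by role. In these lists of 63 genes, of which 62 were found under their symbols, 189 MEF and 253 mESC intervals were counted, and 16 genes held enough for the exact binomial test. None was called in either direction. More mESC than MEF intervals were found for 32 genes, more MEF for 11, equal numbers for 12 and none for 7. The median densities over these 62 genes were 35.3 and 46.5 per Mb. Over all protein-coding genes 45.6% had more mESC intervals, 19.9% had more MEF intervals and 18% had none. The median territory was 48.5 kb for the 62 genes and 37.4 kb for all protein-coding genes. The part of length in these counts was not tested.

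Among 15 other EMT and E-box factors, 3 had more MEF and 7 more mESC intervals. The E protein genes Tcf12 (20 MEF and 27 mESC) and Tcf4 (15 and 20), whose products pair with TWIST proteins, held the most. Among 12 genes of TGF-beta signalling, which induces the transition, 4 had more MEF and 7 more mESC intervals, and Tgfbr3, a coreceptor, had 8 and 11. Smad2, a signal transducer, had 4 and 10. Of 10 corepressor genes 3 had more MEF and 5 more mESC intervals, and Suz12, a Polycomb subunit, had 11 and 8. Rcor1, a scaffold of the LSD1 complex, had 6 and 7.

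Among 15 genes that guard the epithelial state, 1 had more MEF and 6 more mESC intervals. Cdh1, the E-cadherin gene repressed by the SNAI and ZEB factors, had 8 in each list, and the junction gene Ocln had 8 and 7. Of 10 mesenchymal genes none had more MEF intervals and 7 had more mESC intervals, against 19.9% and 45.6% of all protein-coding genes. Their median territory was 54.3 kb, against 37.4 kb for all protein-coding genes. Cdh2, which encodes N-cadherin, had 2 and 9, and Cdh11, a cadherin of mesenchyme, had 6 and 9. The lowest p of these named genes was 0.128 (Cdh2, exact binomial test), with an adjusted p of 1.

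The genes most like Zeb1 in both densities, among 576 protein-coding genes with 10 or more intervals and a territory within 20% of its length, were Znrf3 (10 MEF and 8 mESC intervals), Cald1 (11 and 9) and Aak1 (9 and 8). Likeness was the Euclidean distance in log2 of density plus 1 per Mb over the 2 lists, and it was 0.063, 0.066 and 0.083. For Zeb2, among 721 such genes, they were Ccdc141 (6 and 7, distance 0.031), Megf10 (6 and 7, 0.039) and Greb1 (5 and 6, 0.046).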

How the data were processed

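Ss-STARR-seq libraries of 20 input, 64 MEF and 56 mESC samples were summarised by the authors as 1 interval list per cell type, and each interval has a deposited fold, read from its values as a linear ratio, whose direction and scaling the file headers do not give. Per the submitters' processing notes, Bowtie2 and SAMtools were used and hg38 is named, while the series' design text gives mm10. All intervals fitted within the chromosome ends of mm10, so mm10 was used. No source used here gives the peak caller or its threshold, and depth per library is unknown. Starts were read as 0-based and are printed 1-based, which leaves 1 base of doubt.

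Intervals were counted per territory (gene body with 10 kb on each side, GENCODE M21), and the longest transcript gave introns and start site. Genes with 10 or more intervals entered a two-sided exact binomial test of the mESC share with Benjamini-Hochberg adjustment over all of them, at 0.05. This was done in Python 3.11.15 with numpy 2.4.6, pandas 2.3.3 and scipy 1.17.1. The test was checked on counts with known answers. Confidence intervals are exact and cover counting error only. The genes named are the 6 members, the 2 genes with the most intervals in each gene list, and the 3 most similar genes. Also named are the interval of highest fold per gene and list and, chosen after their values were seen, the other intervals at these genes. Members and lists were chosen with earlier results of these data known. Territory flanks of 0, 25 and 50 kb, stricter overlap, list-only intervals, high-fold intervals, midpoints, whole-interval motif counts and a minimum of 5 intervals were tried as alternatives. The knockout experiments were not analysed here.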

Additional observations from a re-analysis of the deposited data

How the results depend on the processing

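Of 44 alternative values, 41 stayed within the interval or side of the threshold of the reported value and 3 moved. This count does not follow the side of the background value, which changed for some settings, as given below. It also includes per-gene test results that could not have moved. For list-only and high-fold intervals 0 of the 6 genes were tested. Genes tested on few intervals, such as Twist2 with 1 and 5, could not have been called at any split. With intervals at or above the median fold alone, which leaves 9 in each list, the density fell to 18.2 per Mb in MEF and 18.2 per Mb in mESC, fewer by construction. The share of mESC windows with CACCTG, 4.35%, was 0% in that subset. The exact binomial test called 0 of the 6 genes under every alternative, with at most 4 of them tested (flanks of 50 kb), and with 0 tested, so that nothing was learned, for list-only and for high-fold intervals. It gave an unadjusted p under 0.05 for 14 to 122 genes of the genome across the alternatives, none of them among the 6. With flanks of 0 kb the densities were 37.4 MEF and 40.1 mESC intervals per Mb (medians of protein-coding genes 0 and 10.6), with 25 kb 28.2 and 44.5 (33.1 and 42.6), and with 50 kb 33.9 and 43.1 (34.3 and 45.9). The density pooled over the 6 territories thus lay above both medians at 0 and 10 kb, below the MEF median at 25 kb and below both at 50 kb. This does not hold gene by gene, since Snai1, Snai2 and Twist1 had no interval in either list with flanks of 0 kb. With flanks of 50 kb Snai1 still had 0 MEF intervals and had 2 mESC intervals, Twist1 had 5 and 6, and Twist2 had 4 and 8, so the mESC excess of Twist2 (1 and 5 at 10 kb) went from a share of 83.3% to 66.7%. The shared fraction ran from 33.3% to 55.6% in MEF and from 33.3% to 47.8% in mESC. For high-fold intervals the MEF value was 33.3%, below the 40.1% of the whole list cut the same way. With flanks of 50 kb it was 45.5% in MEF and 35.7% in mESC, below the 47.3% and 36.6% of the lists. With 25 kb the mESC value was 33.3%, also below the 36.6% of its list. Under the other settings, the main one included, the shared fraction lay above that of the list. No paired analysis was possible because the lists hold no values per library, although the labels give libraries of different groups the same numbers. Depth is unknown, so neither an absent interval nor a difference between the lists can be set against it.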
